A study of Mus musculus with 30 samples.

Results

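Megakaryocyte and platelet transcripts in mouse liver were followed through 7 genes: Pf4, Ppbp, Itga2b, Itgb3, Gp1bb, Gp9 and Treml1. They were taken by gene symbol, as standard markers of megakaryocytes and platelets, from the 14555 genes listed in at least 1 of the 3 deposited tables. All 7 were among the 14259 genes at postnatal day (PND) 1 and PND21. At PND42, 4 of the 7 (Pf4, Ppbp, Itga2b and Itgb3) were among 13091 genes, and Gp1bb, Gp9 and Treml1 were not analysed here at that age. The study asked how cadmium exposure before birth alters the liver transcriptome after birth. Livers came from CD-1 mice, an outbred stock. Exposed animals had received cadmium chloride (CdCl2) at 500 ppb during gestation, and control animals had not. At PND1 there were 4 exposed and 4 control females. At PND21 there were 3 exposed and 3 control females. At PND42 there were 4 exposed and 4 control females, and 4 exposed and 4 control males, which made 30 libraries. Litters are not identified in the labels, so p values measure the spread between these libraries only.

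Megakaryocytes are the large cells that shed platelets. The liver is a site of blood formation before birth, and this activity declines after birth as the bone marrow takes over. Platelets carry adhesion receptors on their surface and release stored chemokines from alpha-granules when activated, and the liver makes thrombopoietin, the hormone that drives platelet production. In whole-liver RNA, fewer cells of a type and less RNA per cell cannot be told apart, and platelets trapped in the blood of the tissue contribute RNA as well as resident megakaryocytes.

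The positions of the 7 genes are given on build GRCm38 (mm10) from the GENCODE vM21 annotation, and all 7 are protein-coding. Pf4 encodes platelet factor 4 and Ppbp encodes pro-platelet basic protein, both chemokines of the alpha-granule. The genes are neighbours on chromosome 5, with Ppbp (ENSMUSG00000029372) at 90768518 to 90770063 and Pf4 (ENSMUSG00000029373) at 90772435 to 90773383, both on the plus strand and 2.37 kb apart. Itga2b (ENSMUSG00000034664, chromosome 11, 102453297 to 102470122, minus strand) and Itgb3 (ENSMUSG00000020689, chromosome 11, 104608000 to 104670476, plus strand) encode integrin αIIb and integrin β3, which together form the platelet fibrinogen receptor. Itgb3 also pairs with another α subunit outside platelets, including on endothelial cells, so it marks platelets less strictly than Itga2b. Gp1bb (ENSMUSG00000050761, chromosome 16, 18620317 to 18622403, minus strand) and Gp9 (ENSMUSG00000030054, chromosome 6, 87778072 to 87779768, plus strand) encode subunits of the receptor for von Willebrand factor. Treml1 (ENSMUSG00000023993, chromosome 17, 48359916 to 48367176, plus strand) encodes a receptor held in alpha-granules and brought to the surface on activation. Of the exon bases of Gp1bb, 91.1% are shared on the same strand with its neighbour Sept5, so how counting divided reads between Gp1bb and Sept5 is uncertain.

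The stretch before the start of each gene was read for motifs of the factors that drive megakaryocyte genes, because these genes moved together with age. RefSeq promoter windows on build GRCm38.p6, covering 250 bases before to 50 bases after the start, matched 6 of the 7 genes; Itgb3 had no entry. The motifs searched on both strands were GATAA, a core bound by GATA factors, and GGAAG, a core bound by ETS factors, and no match of one overlapped a match of the other in the windows of the 6 genes. The 250 bases before the start are printed for a granule chemokine, for αIIb and for a receptor subunit, 5′ to 3′ on the strand of the gene, with motif matches on either strand in capitals. Starts are those of RefSeq. For Itga2b the start, at 102469883, is also that of a coding GENCODE transcript, but 239 of the 250 printed bases lie within the gene span given above, because 1 non-coding GENCODE transcript extends past that start.
Pf4, chr5:90772185-90772434, plus strand: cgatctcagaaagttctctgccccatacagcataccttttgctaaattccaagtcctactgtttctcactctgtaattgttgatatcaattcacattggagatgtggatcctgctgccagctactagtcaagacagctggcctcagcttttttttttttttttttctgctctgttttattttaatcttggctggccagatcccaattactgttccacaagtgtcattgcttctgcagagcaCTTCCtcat
Itga2b, chr11:102469884-102470133, minus strand: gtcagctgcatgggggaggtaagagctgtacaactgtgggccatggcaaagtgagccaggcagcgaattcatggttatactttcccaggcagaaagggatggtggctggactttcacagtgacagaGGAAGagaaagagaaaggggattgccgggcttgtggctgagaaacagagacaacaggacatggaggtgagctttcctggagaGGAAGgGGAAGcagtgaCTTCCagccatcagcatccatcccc
Gp9, chr6:87777820-87778069, plus strand: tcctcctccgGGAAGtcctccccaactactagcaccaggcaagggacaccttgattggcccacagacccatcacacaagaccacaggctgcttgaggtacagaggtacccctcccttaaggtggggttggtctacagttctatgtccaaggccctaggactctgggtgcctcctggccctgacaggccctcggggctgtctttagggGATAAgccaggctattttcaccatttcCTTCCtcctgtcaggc

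GGAAG occurred in all 6 windows, against 71.4% of the 32851 RefSeq windows of the same length. Itga2b held 4 matches, Gp1bb held 3, Ppbp and Gp9 held 2 each, and Pf4 and Treml1 held 1 each. GATAA occurred in 2 of the 6 windows, those of Gp9 and Pf4, against 25.4% of all windows. In Gp9 it lies 43 bases before the start. In Pf4 it lies 37 bases past the start, beyond the printed stretch. Both motifs were present in 2 of the 6 windows and in 17.2% of all windows. These matches describe letters in the windows and were not tied to binding.

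Read totals were 22.03 to 29.6 M reads per library at PND1 and PND21 and 27.7 to 40.1 M reads at PND42. Normalised read counts (reads divided by a library size factor) are used throughout. The PND1 and PND21 tables share 1 scaling and the PND42 table has its own, so no test was made between PND42 and the earlier ages. Hepatocyte transcripts were high in every group: the 7 measured hepatocyte markers (of 8 listed) summed to at least 1.01e+06 normalised counts in every library. Among PND42 controls, 1 female and 3 male libraries carry no replicate number, and the sample behind the unnumbered female library is uncertain, because the tag in its column name is the one listed for a PND21 control (replicate 1).

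**Figure D1:**
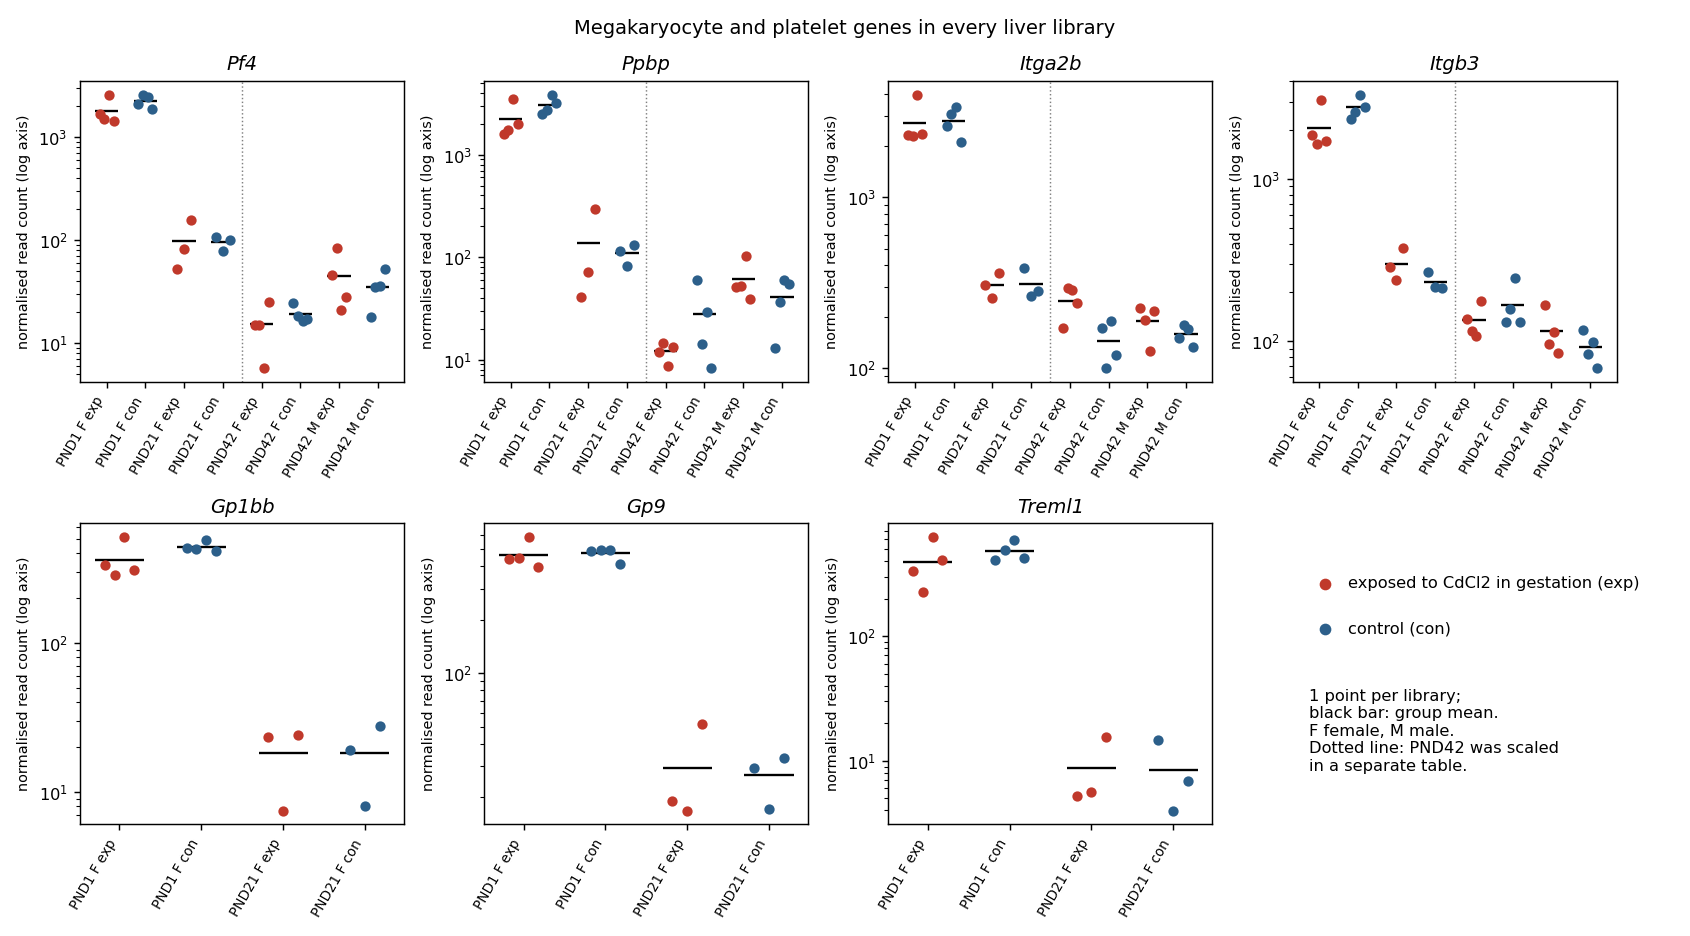
Normalised read counts (log axis) of the 7 genes in every liver library, with exposed animals in red, controls in blue and a bar at each group mean. Counts at PND1 lie far above those at PND21 for all 7 genes, while exposed and control libraries of the same age overlap for each gene.

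At PND1 the 7 genes were well expressed in liver. Per kb of exon, Pf4 stood highest, at 2488 ± 731 normalised counts per kb in exposed females and 3101 ± 449 in controls (SD, n = 4 each). Ppbp followed at 2047 ± 822 in exposed females and 2840 ± 542 in controls. Within libraries, Pf4 stood above Ppbp per kb in all 4 exposed females (log2 ratio 0.10 to 0.66), while the controls ran from -0.19 to 0.50. Gp9 had 529 ± 93.2 normalised counts per kb in exposed females and 538 ± 45.6 in controls, Itga2b had 501 ± 153.4 in exposed females and 513 ± 101 in controls, and Itgb3 had 351 ± 112 in exposed females and 467 ± 68.8 in controls. Within libraries, Itgb3 lay below Itga2b per kb in all 4 exposed females (log2 ratio -0.59 to -0.42). The controls ran from -0.36 to 0.28, with only replicate 4 above equality. Treml1 had 282 ± 119 normalised counts per kb in exposed females and 340 ± 60.7 in controls, and Gp1bb had 172 ± 49.4 in exposed females and 211 ± 15.5 in controls. The rank of Gp1bb is uncertain, because its length includes the 91.1% of exon bases shared with Sept5. Gp1bb aside, the chemokine transcripts stood above the receptor transcripts per length in both groups.

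Between PND1 and PND21 all 7 genes fell in control females, by 8.9-fold to 55.5-fold. This comparison asks how the signal changes as the liver matures. Pf4 had 78.4, 101 and 108 normalised counts in PND21 controls, against 1868, 2072, 2427 and 2577 in PND1 controls. Every PND21 library lay below every PND1 library, as it did for the other 6 genes. The share of all genes that separated in this way was not counted, and 52.9% of the 14233 genes tested passed in this comparison. The log2 fold change of Pf4, on the scale of log2 of the normalised count plus 1, was -4.53 ± 0.17 (SE; adjusted p = 4.1e-08, limma), which is 23.1-fold lower. Ppbp had 82.4, 115 and 130 normalised counts in PND21 controls, against 2521, 2736, 3199 and 3847 in PND1 controls, a log2 fold change of -4.81 ± 0.20 (adjusted p = 7.8e-08). For both chemokine genes the 3 PND21 controls lay close together.

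The integrin genes had the smallest folds of the 7. Itga2b had 263, 284 and 388 normalised counts in PND21 controls, against 2114, 2624, 3091 and 3365 in PND1 controls. Itgb3 had 212, 215 and 266 normalised counts in PND21 controls, against 2346, 2605, 2777 and 3307 in PND1 controls. Their log2 fold changes were -3.16 ± 0.20 for Itga2b (adjusted p = 1.2e-06) and -3.57 ± 0.16 for Itgb3 (adjusted p = 1.2e-07), or 8.9-fold and 11.9-fold lower.

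The receptor subunit genes and Treml1 rested on few reads at PND21. Gp1bb had 7.98, 19.0 and 27.7 normalised counts in PND21 controls, from 6 to 20 reads per library, against 414, 428, 434 and 487 in PND1 controls. Gp9 had 17.3, 29.2 and 33.2 normalised counts in PND21 controls, against 414, 491, 493 and 498 in PND1 controls. Treml1 had 3.99, 6.93 and 14.6 normalised counts in PND21 controls, from 3 to 10 reads per library, against 405, 420, 491 and 592 in PND1 controls. Log2 fold changes were -4.67 ± 0.36 for Gp1bb (25.5-fold lower), -4.15 ± 0.25 for Gp9 (17.8-fold lower) and -5.80 ± 0.37 for Treml1 (55.5-fold lower), with limma adjusted p values of 4.0e-06, 9.8e-07 and 1.3e-06. With so few reads behind Treml1 and Gp1bb at PND21, the size of their fold rests on a few reads per library and on the offset of 1.

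Of 14233 genes tested in controls, 52.9% passed the test in either direction, 26.9% passed as lower and 58.5% had an unadjusted p under 0.05. The median log2 fold change was -4.53 over the 7 genes and 0.01 over all genes tested. Of all genes, 4.38% had a lower log2 fold change than Itga2b and 0.689% a lower one than Treml1. With libraries scaled by total reads, the all-gene median shifted by -0.51, to -0.50, and the 7 genes were all lower, with a median of -5.04. Calls over all genes then stood at 1724 higher and 6585 lower, against 3701 higher and 3826 lower with the deposited scaling.

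All 7 genes also fell in exposed females. Of 14223 genes tested there, 46.6% passed in either direction, 24.2% passed as lower and 53.4% had an unadjusted p under 0.05. Pf4 had 52.7, 83.2 and 156.8 normalised counts in PND21 exposed females, against 1434, 1504, 1665 and 2571 in PND1 exposed females. Ppbp had 41.1, 72.0 and 297 normalised counts in PND21 exposed females, against 1588, 1747, 2006 and 3527 in PND1 exposed females. For these chemokine genes the 3 exposed PND21 livers spread more widely than the controls, and for Ppbp replicate 3 stood far above the other 2. Log2 fold changes in exposed females were -4.29 ± 0.35 for Pf4, -4.44 ± 0.63 for Ppbp, -3.12 ± 0.22 for Itga2b and -2.76 ± 0.24 for Itgb3. They were -4.35 ± 0.40 for Gp1bb, -4.12 ± 0.36 for Gp9 and -5.39 ± 0.43 for Treml1, with limma adjusted p values from 8.2e-06 to 0.00084 over the 7. Scaling by total reads shifted the median of all genes by -0.33 in exposed females and left all 7 genes lower.

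**Figure D2:**
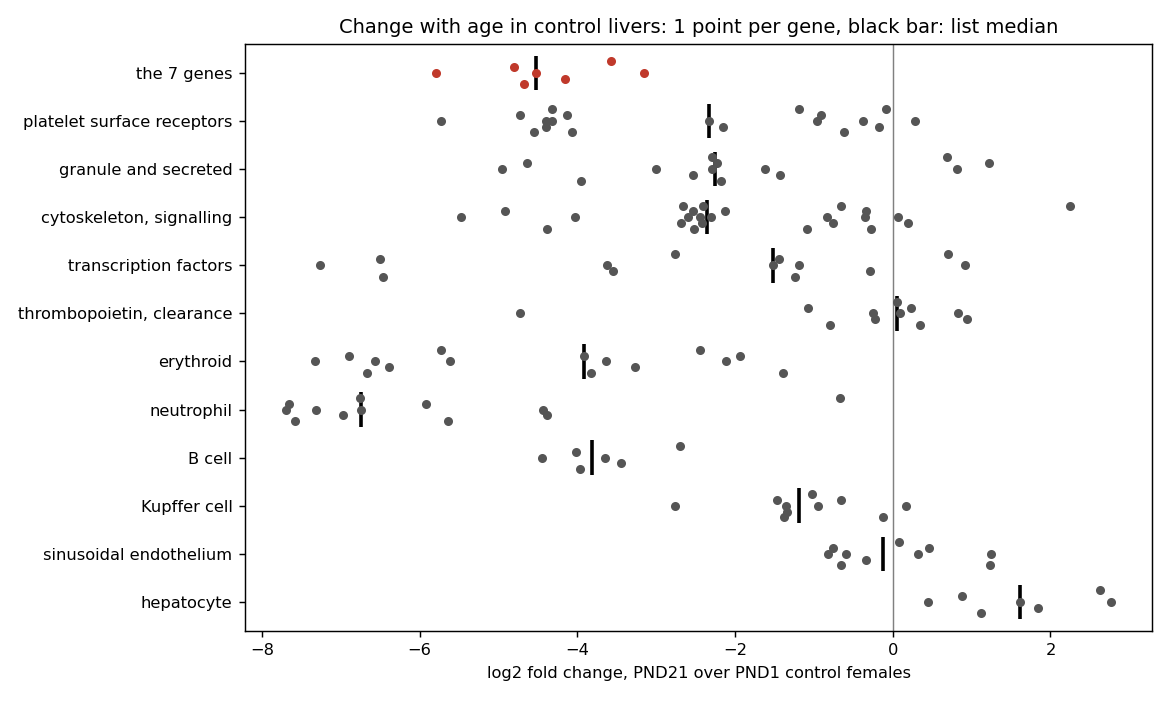
Log2 fold change from PND1 to PND21 in control females, with 1 point per gene, the 7 genes in red, and a black bar at each list's median. The 7 genes lie between -5.80 and -3.16, near the erythroid and B cell markers, while hepatocyte markers lie above 0.

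The wider platelet programme fell less evenly. Over 80 measured pathway genes other than the 7, 55 fell, 8 rose and 17 did not pass the test in controls, with a median log2 fold change of -1.88. Among 19 measured platelet surface receptors 14 fell and none rose (median -2.33). P2rx1, an ATP-gated channel, had 11.6 ± 1.75 normalised counts in PND21 controls, against 296 ± 49.1 in PND1 controls (log2 fold change -4.56 ± 0.26, adjusted p = 6.3e-07), and Gp5, another subunit of the von Willebrand factor receptor, had 31.0 ± 17.3 against 518 ± 69.3 (-4.14 ± 0.31, adjusted p = 3.8e-06). Among 14 granule and secreted products 11 fell and 3 rose (median -2.26). Thbs1, encoding thrombospondin 1, fell by 4.95 on the log2 scale (SE 0.19), to 68.9 ± 4.01 normalised counts in PND21 controls, against 2203 ± 484 in PND1 controls. Among 24 cytoskeletal and signalling genes 18 fell and 1 rose (median -2.36), with Plek, the pleckstrin gene, at -4.91 ± 0.29 and Alox12, the platelet lipoxygenase gene, at -4.03 ± 0.29.

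The transcription factors of the lineage divided. Of 13 measured, 10 fell and 2 rose (median -1.52). Gata1 had 13.5 ± 2.23 normalised counts in PND21 controls, against 1281 ± 193 in PND1 controls (log2 fold change -6.47 ± 0.21), and Nfe2 had 18.2 ± 5.03 against 1713 ± 264 (-6.50 ± 0.22), with limma adjusted p values of 1.8e-08 and 2.5e-08. Both factors also act in erythroid cells. In the hormone arm, Thpo, which encodes thrombopoietin, was higher at 709 ± 114 normalised counts in PND21 controls, against 397 ± 38.9 in PND1 controls (0.83 ± 0.16, adjusted p = 0.0017). Of 11 genes of thrombopoietin signalling and platelet clearance, 3 fell and 2 rose, with Asgr1 among those that rose, a subunit of the hepatocyte receptor that clears desialylated platelets (0.94 ± 0.17, adjusted p = 0.0012). With scaling by total reads 17 of the 19 receptors fell, the transcription factors gave 10 that fell and none that rose, and the thrombopoietin list gave 6 that fell and 1 that rose, with its median at -0.45 in place of 0.06. At least 1 of the rises of Thpo and Asgr1 therefore did not pass with that scaling.

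Markers of other blood cells fell over the same interval. All 15 measured erythroid genes fell in controls (median -3.92), as did 11 of 12 neutrophil genes (median -6.75) and 6 of 6 B cell genes (median -3.81). The erythroid list summed to between 29203 and 87509 normalised counts in PND21 controls, against 242549 to 400325 in PND1 controls. Kupffer cell markers were lower by a median of -1.19 (8 of 10 fell), sinusoidal endothelial markers had a median of -0.13 (5 fell, 3 rose), and 6 of 7 hepatocyte markers rose (median 1.62). Among single markers in controls, the albumin gene Alb was at a log2 fold change of 1.12, the globin gene Hbb-bs at -3.83 and the Kupffer cell gene Clec4f at -0.12. The part of these other cell types in the change of the 7 genes was not tested. By total reads, 4 of 7 hepatocyte markers rose and 5 sinusoidal endothelial markers fell with 2 rising, while the erythroid and B cell lists again fell in full and 12 of 12 neutrophil genes fell.

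At PND1 the 7 genes averaged lower in exposed than in control females, but none passed the test. This comparison asks whether gestational cadmium altered the signal in newborn liver. Ppbp had 1588, 1747, 2006 and 3527 normalised counts in exposed females, against 2521, 2736, 3199 and 3847 in controls. Exposed replicate 3 lay above all but 1 control and the other 3 exposed libraries lay below all controls, so the groups overlapped. The log2 fold change was -0.53 ± 0.24 (95% CI -1.06 to 0.001; adjusted p = 0.345, limma). Itgb3 had 1653, 1711, 1861 and 3057 normalised counts in exposed females, against 2346, 2605, 2777 and 3307 in controls. Its difference was -0.45 ± 0.20 (95% CI -0.89 to -0.01; unadjusted p = 0.0440, adjusted p = 0.332).

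Pf4 had 1434, 1504, 1665 and 2571 normalised counts in exposed females, against 1868, 2072, 2427 and 2577 in controls, a difference of -0.35 ± 0.19. The same pattern of 3 low libraries and 1 high one held for Gp1bb, which had 287, 308, 330 and 511 normalised counts in exposed females, against 414, 428, 434 and 487 in controls (-0.33 ± 0.18). Treml1 differed by -0.35 ± 0.27. Itga2b (-0.06 ± 0.21) and Gp9 (-0.04 ± 0.14) were close to 0, and Gp9 was at 0.019 with scaling by total reads. The 95% intervals bound the difference of Gp9 between -0.35 and 0.28, and that of Itga2b between -0.51 and 0.40. Over the 7 genes the median was -0.35, against -0.01 over all 14059 genes tested. The percentage of all genes called was 0, with 2039 genes (14.5%) at an unadjusted p under 0.05, and of the 7 genes 1 (Itgb3) was at that level. In the authors' deposited table Gp9, Treml1 and Gp1bb had no adjusted p at PND1, and the smallest among the other genes was 0.343, for Itgb3.

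One exposed newborn was high for all 7 genes. Replicate 3 was the highest of the exposed libraries for 7 of 7, on average 0.59 log2 units above its group mean, with single genes 0.34 to 0.75 above. Itga2b had 3988 normalised counts there, against 2300, 2310 and 2336 in the other 3 exposed livers. Without replicate 3 the log2 fold changes of the 7 genes ran from -0.78 (Ppbp) to -0.15 (Gp9), with a median of -0.53 and limma adjusted p values of 0.166 to 0.644. Replicate 3 was singled out for being highest for these same genes, so lower values without it follow from that choice. Over all genes, 5 were called without that library. None of the 7 passed with or without it.

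**Figure D3:**
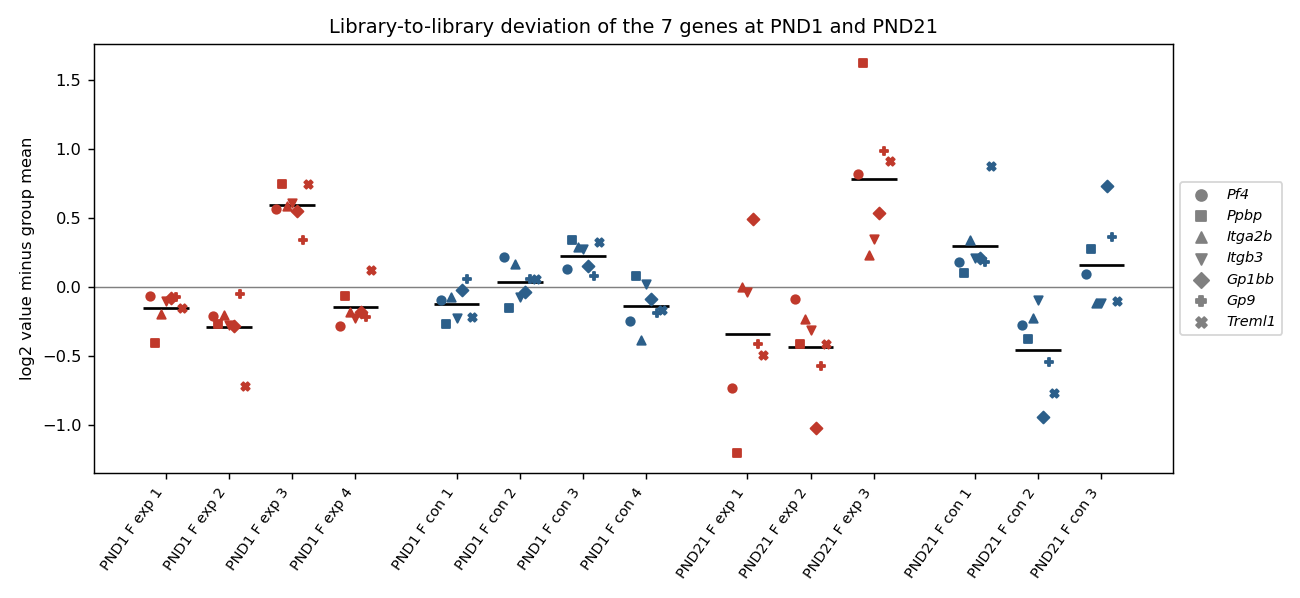
Log2 value minus the group mean for each of the 7 genes in each PND1 and PND21 library, with a bar at the mean over genes. Exposed replicate 3 is high for 7 of 7 genes at PND1 (mean 0.59) and at PND21 (mean 0.78).

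The other platelet genes at PND1 also gave no call. Over all 14059 genes tested, 6920 averaged higher and 7139 lower in exposed females. Genes of a list were measured in the same libraries, so counts of direction are not independent. Of 19 surface receptors 15 averaged lower in exposed females (median -0.32), including Gp5 (383 ± 155.5 normalised counts in exposed females, against 518 ± 69.3 in controls; -0.50 ± 0.23) and P2ry1, an ADP receptor (217 ± 33.2 in exposed females; -0.52 ± 0.18, adjusted p = 0.281). Of 14 granule genes 11 averaged lower, with Thbs1 at 1289 ± 336 normalised counts in exposed females, against 2203 ± 484 in controls (-0.78 ± 0.20, adjusted p = 0.244). The 24 cytoskeletal and signalling genes showed no lean, with 13 lower and 11 higher in exposed females (median -0.02). By total reads 9 were lower and 15 higher. Tubb1, the platelet tubulin gene, was the lowest of this list, with 185 ± 77.6 normalised counts in exposed females (-0.78 ± 0.29). The transcription factors averaged the other way, again without a call. Of 13, 12 averaged higher in exposed females (median 0.30), with Nfe2 at 0.42 ± 0.21 and Gata1 at 0.30 ± 0.23. All 15 erythroid genes averaged higher in exposed females (median 0.37), with 0 at an unadjusted p under 0.05 (limma). Their sum ran from 257872 to 565924 normalised counts in exposed females, against 242549 to 400325 in controls. The mitochondrial share of reads was 8.98% to 18.8% in exposed females, against 4.88% to 17.5% in controls. Sinusoidal endothelial markers summed to between 14732 and 17815 normalised counts in exposed females, against 11788 to 13310 in controls, with no overlap. Gene by gene the list was mixed, with 6 of 10 averaging higher and 4 lower in exposed females (median 0.07). Of 7 hepatocyte markers 6 averaged lower in exposed females (median -0.31), and their sums overlapped, at 1.01e+06 to 1.45e+06 normalised counts in exposed females and 1.17e+06 to 2.03e+06 in controls. The part of erythroid, endothelial and hepatocyte RNA and of RNA composition in these values was not tested. The receptor, granule, transcription factor and erythroid counts were the same with scaling by total reads.

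At PND21 no exposure difference was found in the 6 genes tested, and Treml1 was below the filter. Here 0.036% of 13886 genes were called (5 genes, 0.0288% as higher and 0.0072% as lower), and none of the 6. An unadjusted p under 0.05 was reached by 9.57% of all genes and by none of the 6. Pf4 had 52.7, 83.2 and 156.8 normalised counts in exposed females, against 78.4, 101 and 108 in controls, a log2 fold change of -0.10 ± 0.40. Ppbp had 41.1, 72.0 and 297 in exposed females, against 82.4, 115 and 130 in controls (-0.16 ± 0.66, 95% CI -1.68 to 1.36). For both chemokines, 1 exposed library lay above all controls and at least 1 lay below all. Itgb3 had 238, 289 and 376 in exposed females, against 212, 215 and 266 in controls (0.36 ± 0.23, 95% CI -0.15 to 0.88; adjusted p = 0.603). Itga2b had 259, 306 and 359 in exposed females, against 263, 284 and 388 in controls (-0.01 ± 0.22). The groups overlapped for every gene.

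The intervals at PND21 are wide. Those of Gp1bb (-1.46 to 1.46) and Gp9 (-1.21 to 1.20) would admit more than a doubling or halving, from 8 to 22 reads per exposed library for Gp1bb and 18 to 43 reads for Gp9. Treml1 had 5.27, 5.61 and 15.6 normalised counts in exposed females, against 3.99, 6.93 and 14.6 in controls, 3 to 13 reads in any library. Replicate 3 was again the highest exposed library for 7 of 7 genes, on average 0.78 above its group mean. Without it the 6 genes ran from -0.97 (Ppbp, adjusted p = 0.546, limma) to 0.19 (Itgb3), with a median of -0.38. Lower values again follow from the choice of the library left out. Scaled by total reads, with the all-gene median shifted by 0.24, all 6 differences were above 0 (median 0.22). In the authors' deposited table the smallest adjusted p among the 7 genes at PND21 was 0.476, for Itgb3. Of 74 other pathway genes tested at PND21 none was called. The 7 hepatocyte markers summed to between 1.62e+06 and 2.52e+06 normalised counts in exposed females, against 2.27e+06 to 4.73e+06 in controls, and their part was not tested.

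Whether the exposure difference changed between PND1 and PND21 was tested in 1 fit of the 4 groups. None of the 7 genes passed, where 0.014% of 14259 genes did (2 genes), and 9.07% of all genes and 1 of the 7 had an unadjusted p under 0.05. The change in the difference was above 0 for all 7, from 0.03 ± 0.46 (Gp9) to 0.81 ± 0.30 (Itgb3; unadjusted p = 0.0165, adjusted p = 0.452, limma), with a median of 0.33 over the 7 and -0.002 over all genes. Itgb3 was lower in exposed females at PND1 and higher at PND21, with neither difference past the test. Scaling by total reads shifted the median of all genes by 0.18 and gave a median of 0.49 over the 7.

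**Figure D4:**
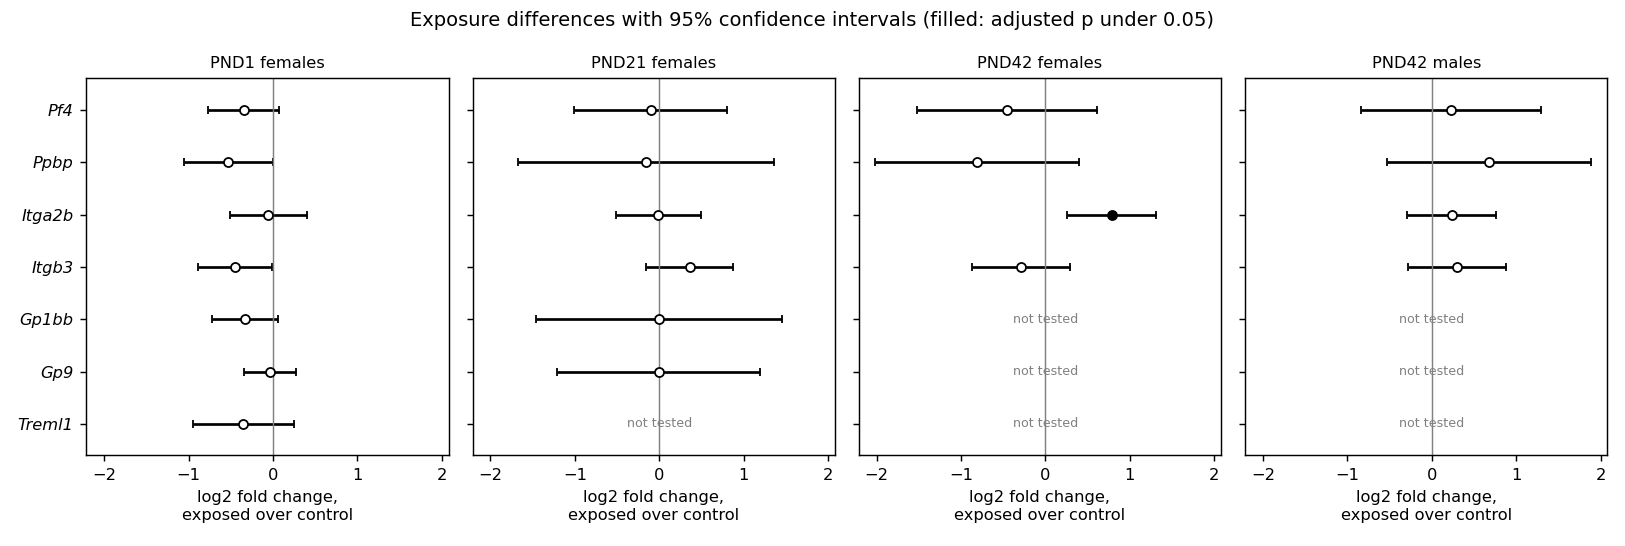
Log2 fold change, exposed over control, of each gene with its 95% confidence interval, at PND1, PND21 and PND42; filled points passed the adjusted p of 0.05. Itga2b in PND42 females (0.79) is the filled point, and intervals at PND21 are wider than at PND1 for 6 of 6 genes tested at both ages.

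At PND42 Itga2b rose in exposed females and the chemokine genes did not pass the test. Itga2b had 171, 240, 286 and 296 normalised counts in exposed females, against 99.9, 120, 171 and 189 in controls. Exposed replicate 1 lay within the range of the controls and the other 3 exposed libraries lay above it. The means were 248 ± 57.0 in exposed females and 144.97 ± 41.9 in controls (SD, n = 4 each), and the log2 fold change was 0.79 ± 0.25 (95% CI 0.26 to 1.31; adjusted p = 0.0188, limma). Of 13091 genes, 40.2% passed in this comparison, 18.9% as higher and 21.4% as lower, and 48.6% had an unadjusted p under 0.05, so 1 call among 4 genes does not exceed the share of all genes. The call was lost when 1 library was left out, for 4 of the 8: without control replicate 3 (adjusted p = 0.0710), the unnumbered control (0.0537), exposed replicate 2 (0.063) or exposed replicate 3 (0.058).

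Pf4 had 5.76, 15.0, 15.2 and 25.2 normalised counts in exposed females, against 16.7, 17.4, 18.6 and 24.5 in controls (-0.46 ± 0.51, 95% CI -1.53 to 0.61). Ppbp had 8.63, 11.8, 13.4 and 14.4 in exposed females, against 8.25, 14.1, 29.0 and 60.4 in controls (-0.81 ± 0.57, 95% CI -2.02 to 0.39). Exposed females lay in the lower part of the range of controls for Ppbp, and the groups overlapped for all of Pf4, Ppbp and Itgb3. Itgb3 had 108, 115, 137 and 177 in exposed females, against 131, 132, 158.2 and 245 in controls (-0.29 ± 0.28). Pf4 rested on 8 to 32 reads per exposed library and 19 to 26 per control library.

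Library composition differed between the PND42 female groups. The share of reads from 14 mitochondrial genes was 22.2% to 35.5% in exposed females, against 5.25% to 12.8% in controls. The mean log2 value of the nuclear-retained RNAs Malat1 and Neat1 was 15.51 to 15.91 in exposed females, against 13.04 to 14.46 in controls. The 7 hepatocyte markers summed to between 1.27e+06 and 2.32e+06 normalised counts in exposed females, against 2.87e+06 to 3.97e+06 in controls, and neither these nor the other ranges overlapped. Their part in the Itga2b difference was not tested.

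The remaining pathway genes in PND42 females moved in both directions. Of 63 measured, 13 rose, 6 fell and 44 did not pass, where 18.9% of all genes passed as higher and 21.4% as lower, so the rises are near the share of all genes and the falls below it. Among 10 transcription factors 6 rose and none fell (median 1.06). Fli1, an ETS factor of the lineage, had 390 ± 104 normalised counts in exposed females, against 122 ± 9.98 in controls (1.63 ± 0.25, adjusted p = 0.00013), and Meis1 had 485 ± 69.4 against 163 ± 51.8 (1.61 ± 0.25, adjusted p = 0.00013). Both are also expressed outside megakaryocytes, Fli1 in endothelium among other tissues. Among 22 cytoskeletal and signalling genes 5 rose, led by Arhgap6 (2.48 ± 0.34), and 4 rose with scaling by total reads. Among 9 surface receptors Cd9, a tetraspanin, fell to 168 ± 65.6 normalised counts in exposed females, against 578 ± 257 in controls (-1.74 ± 0.31, adjusted p = 0.00042), and none rose. Among 12 granule genes 3 fell and 1 rose; Clu, the clusterin gene, which hepatocytes also express, fell by 2.11 on the log2 scale (SE 0.32). Thpo was higher at 991 ± 135 normalised counts in exposed females, against 566 ± 41.7 in controls (0.80 ± 0.18, adjusted p = 0.0024), and the clearance receptor genes Asgr1 (-1.17 ± 0.30) and Asgr2 (-1.38 ± 0.25) fell.

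In PND42 males none of the 4 genes passed, and 0 of 13091 genes did, with 932 (7.12%) at an unadjusted p under 0.05. Pf4 had 20.9, 28.5, 46.2 and 83.4 normalised counts in exposed males, against 18.1, 35.2, 35.8 and 52.9 in controls (0.23 ± 0.51). Ppbp had 38.8, 51.2, 52.6 and 102 in exposed males, against 12.9, 36.2, 54.3 and 59.6 in controls (0.68 ± 0.57). Itga2b had 127, 192, 215 and 225 in exposed males, against 134, 150, 170 and 180 in controls (0.23 ± 0.25). Itgb3 had 84.5, 96.0, 114 and 168 in exposed males, against 68.2, 83.1, 99.3 and 118 in controls (0.30 ± 0.28). Exposed and control males overlapped for all 4 genes, and the limma adjusted p values ran from 0.679 to 0.879. Thpo (0.43 ± 0.18, adjusted p = 0.622) and the lineage factor gene Mef2c (0.56 ± 0.27) did not pass either. The mitochondrial share of reads was 14.5% to 29.7% in exposed males, against 9.03% to 24.8% in control males.

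The exposure difference in females less that in males was tested directly. None of the 4 genes passed, where 7.91% of all genes did (3.84% as higher and 4.07% as lower). For Itga2b it was 0.55 ± 0.35 (95% CI -0.19 to 1.296; adjusted p = 0.351), so the Itga2b call in females was not shown to differ from males. Ppbp gave -1.49 ± 0.81 (adjusted p = 0.263), Pf4 -0.68 ± 0.72 and Itgb3 -0.59 ± 0.39.

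Among control animals at PND42, female and male livers were compared to describe the level by sex. None of the 4 genes passed, where 6.93% of 13091 genes did (2.35% as higher and 4.58% as lower). An unadjusted p under 0.05 was reached by 23% of all genes and 1 of the 4. Itgb3 had 131, 132, 158.2 and 245 normalised counts in control females, against 68.2, 83.1, 99.3 and 118 in control males, with no overlap (0.83 ± 0.28, unadjusted p = 0.0076, adjusted p = 0.0768, limma). The share of all genes without overlap in this comparison was not counted. Scaled by total reads, with the all-gene median shifted by 0.37, the Itgb3 difference was 1.19 and passed (adjusted p = 0.0166). Pf4 (-0.77 ± 0.51), Ppbp (-0.69 ± 0.57) and Itga2b (-0.16 ± 0.25) averaged lower in females, and Itga2b was at 0.20 by total reads. Kupffer cell markers, of which 6 of 10 were higher in control females (median 0.89), moved with Itgb3, and their part was not tested.

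The 7 genes did not keep the same proportions across ages, as the ratios between genes within each library show. Per kb of exon, the log2 ratio of Pf4 to Itga2b was 2.22 to 2.45 in PND1 exposed females and 2.45 to 2.74 in PND1 controls. It was 0.38 to 1.72 in PND21 exposed females and 1.07 to 1.43 in PND21 controls. In geometric means, Pf4 transcripts per kb were 6.09 times those of Itga2b in PND1 controls, 2.34 times in PND21 controls and 1.03 times in PND42 control females. At PND42 it ran from -2.71 to -0.33 among exposed females, against -0.59 to 0.49 among control females, and from 0.0036 to 1.72 in exposed males and -0.13 to 1.58 in control males. A ratio within a library needs no scaling between libraries, but it shows unequal change and not which gene moved.

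The ratio of β3 to αIIb transcripts separated these exposed and control libraries at both early ages, in opposite directions. The log2 ratio of Itgb3 to Itga2b per kb was -0.59 to -0.42 in PND1 exposed females and -0.36 to 0.28 in PND1 controls, with every exposed library below every control. At PND21 it was -0.23 to -0.05 in exposed females and -0.66 to -0.40 in controls, with every exposed library above every control. These pairs were chosen after their values were seen, so no test is given. The share of all gene pairs whose ratio separates in this way was not counted. At PND42 the ratio ran from -1.52 to -0.44 among exposed females, against -0.49 to 0.55 among control females, which overlapped, and it was -1.46 to -0.27 in exposed males and -1.23 to -0.46 in control males. Separation at PND1 was not particular to Itgb3. The ratios of Pf4 and Ppbp to Itga2b, the same denominator, were also lower in every exposed library there. The margins were narrow: the highest exposed and lowest control values were 2.4474 and 2.4475 for Pf4, and 2.155 and 2.156 for Ppbp. At PND21 the groups overlapped for both.

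**Figure D5:**
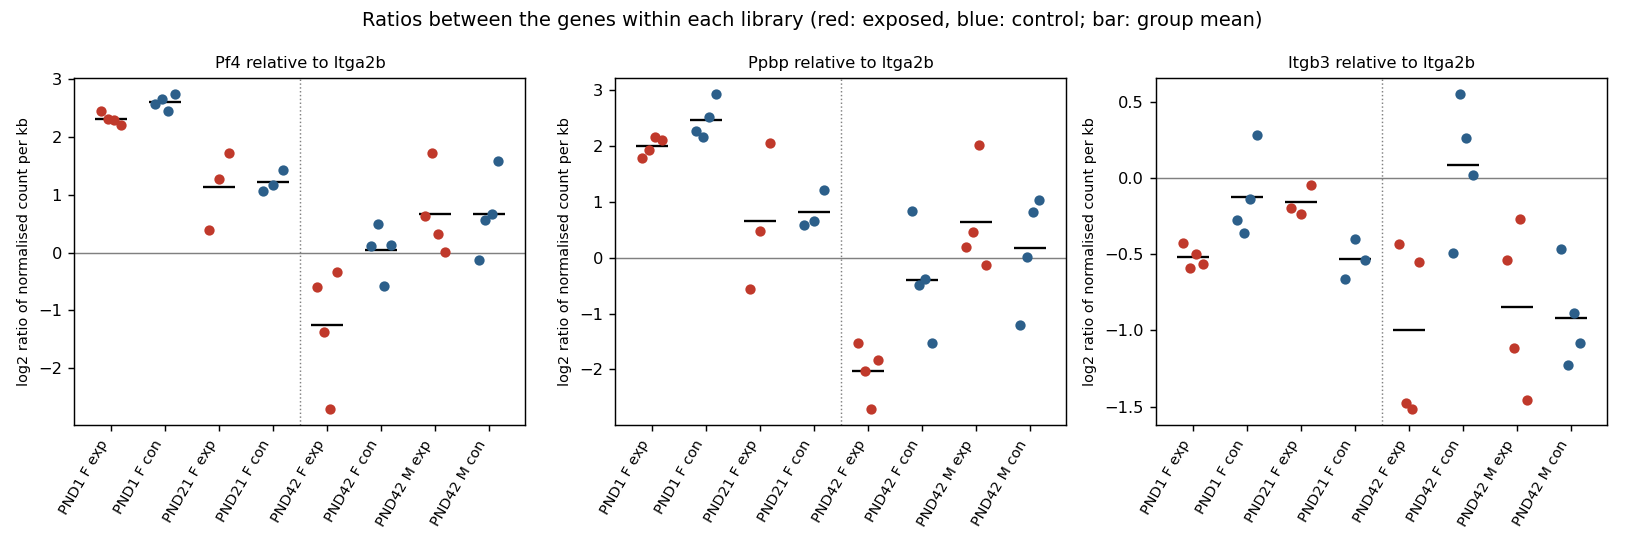
Log2 ratio of normalised counts per kb of Pf4, Ppbp and Itgb3 to Itga2b within each library, exposed in red, controls in blue, with a bar at each group mean. The Pf4 ratio is above 2.2 in all PND1 libraries and below 1.8 in all later ones. The Itgb3 ratio separates exposed from control libraries at PND1 and PND21 in opposite directions, without a test. The Pf4 and Ppbp ratios also separate them at PND1, by narrow margins.

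Libraries that were high for 1 gene tended to be high for the others at the early ages. Over the 14 PND1 and PND21 libraries, after each group mean was subtracted, Pearson correlations between pairs of the 7 genes ran from 0.38 (Pf4 with Gp1bb) to 0.91 (Pf4 with Ppbp). Over the 16 PND42 libraries the 6 pairs of the 4 genes ran from -0.04 (Ppbp with Itgb3) to 0.33 (Pf4 with Ppbp). These are descriptions over libraries that share scaling and, in part, exposure group, and low counts at PND42 limit them. The genes whose deviations were most like the mean of the 7 over the 14 early libraries, of 14252 compared, were Alox12 (r = 0.94), Mcrip1 (0.91), Plek (0.91), Cnn2 (0.90), Mob4 (0.89), Myct1 (0.88), Twistnb (0.87) and Ctla2a (0.87). Of these, Alox12 and Plek were on the platelet lists. At PND42, of 13087 compared over 16 libraries, they were Rflnb (r = 0.91), Ccdc189 (0.89), Zdhhc20 (0.88), Csad (0.86), Faap20 (0.86), Cd9 (0.86), Socs2 (0.85) and Mdk (0.84), of which Cd9 was on the platelet lists.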

How the data were processed

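Liver RNA of 30 libraries was sequenced by the authors. The submitters' processing notes name FastQC, STAR and featureCounts and the build mm10, without versions. The deposited values are log2 of the read count divided by a size factor, plus 1, as read from the values: dividing back gave whole reads for 100% of values within 0.1. The deposited signal column (baseMean) is the authors' mean of these normalised counts, over PND1 and PND21 together and over PND42 apart. The deposited log2 fold changes, test statistics (a score) and p values are the authors' own and are used only where named. The lowest mean of any gene is 10.5 normalised counts over PND1 and PND21 and 12.1 over PND42, so genes below these are not analysed here.

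From these, limma 3.58.1 in R 4.3.3 was fitted to the deposited log2 values, with its trend and robust options. A gene was tested with at least 10 normalised counts in as many libraries as the smallest group. Tests were two-sided, with Benjamini-Hochberg adjustment over all genes tested and a threshold of 0.05. PND1, PND21 and the age comparisons used the compared groups; PND42 contrasts came from 1 fit of 4 groups. The exposed and control contrasts across ages and sexes share libraries. Fits were tested on simulated data with the same spread for every gene and with changes placed only in well-counted genes. Those data do not cover changes in genes with few reads. The alternatives were an offset of 0.5 or 8, no filter, scaling by total reads, median-of-ratios scaling, limma voom on whole reads, other groupings of the fit, each library left out, and the replicate number as a block. The 7 genes, the lists and the tests were chosen with earlier results of these data known. All 7 genes are named in each comparison, up to 4 genes of lowest p per pathway list, the 8 genes most like the 7, and Thpo, Gata1, Nfe2, Alb, Hbb-bs and Clec4f as background levels; 1 further gene of this rule is not reported here.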

Additional observations from a re-analysis of the deposited data

Results flagged for a closer look

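In groups of 4 libraries, a library was singled out where its gap to the nearest of the others took up more of the group's range than Dixon's 95% limit. This was checked for 30 combinations of gene and group, and chance gives about 1 in 20. It held for 2. Itga2b in PND1 exposed replicate 3 stood at a log2 normalised count of 11.96, with 0.972 of the group's range between it and the next library. The same animal was highest in its group for 7 of 7 genes. Gp9 in PND1 control replicate 4 stood at 8.70, below the other 3 controls, with 0.926 of the range in the gap. That library was the lowest of its group for 4 of 7 genes. The causes were not tested.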

How the results depend on the processing

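The fall of all 7 genes with age held under every alternative and with each library left out, in controls and in exposed females. Over all comparisons and alternatives, 749 of the values for single genes kept their direction and side of the threshold, 46 changed sign, 4 lost a call and 1 gained one. None of the sign changes passed the threshold. With scaling by total reads the exposure differences were 0.019 for Gp9 at PND1, and 0.13 for Pf4, 0.076 for Ppbp, 0.23 for Itga2b, 0.22 for Gp1bb and 0.22 for Gp9 at PND21. In PND42 controls Itga2b was then at 0.20 for females minus males, and 1 of the 4 genes (Itgb3) was called in place of none. An offset of 8 gave 0.0011 for Gp1bb and 0.013 for Gp9 at PND21, and median-of-ratios scaling gave 0.0037 and 0.00081. With voom the change in the Gp9 difference between ages was -0.021. The causes were not tested.

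With each library left out in turn, PND1 differences ran from -0.15 to 0.037 for Gp9 and from -0.25 to 0.041 for Itga2b. PND21 differences ran from -0.47 to 0.51 for Gp1bb, -0.50 to 0.28 for Gp9, -0.13 to 0.16 for Itga2b, -0.51 to 0.26 for Pf4 and -0.97 to 0.44 for Ppbp. The change between ages ran from -0.14 to 0.84 for Gp1bb, -0.46 to 0.32 for Gp9, -0.071 to 0.24 for Itga2b, -0.17 to 0.61 for Pf4, -0.44 to 0.97 for Ppbp and -0.053 to 0.84 for Treml1. Pf4 in PND42 males ran from -0.13 to 0.52. In PND42 females 0 to 1 of the 4 genes were called, with Itga2b at 0.62 to 0.95.

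Over all genes, calls at PND21 numbered 5, against 2 with voom, 50 in 1 fit of the PND1 and PND21 groups, 8 with the replicate block and 0 to 14 with a library left out. For the change between ages they numbered 2, against 4 by total reads, 0 with voom and 2 to 12 with a library left out. In PND42 controls they numbered 907, against 2110 by total reads and 371 to 1979 with a library left out. For the exposure difference of females less males they numbered 1036, against 492 to 1929. Leaving out a library gave 0 to 5 at PND1 and 0 to 27 in PND42 males, where none was called.

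Same-numbered exposed and control libraries did not deviate together: correlations were -0.08 to 0.12 at PND1, -0.05 to 0.23 at PND21 and -0.08 to 0.07 in PND42 females, so the numbers were not taken as pairs. With the replicate block, 0 of 7 genes were called at PND1, 0 of 6 at PND21 and 1 of 4 in PND42 females (Itga2b, 0.88, adjusted p = 0.0451, from replicates 2, 3 and 4). No paired analysis was possible because of fewer than 2 shared numbers between exposed and control males. Counts under about 30 reads in some or all libraries at PND21 (Gp1bb, Gp9, Treml1) and in some at PND42 (Pf4, Ppbp) limit those values.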

Other observations

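The exposed libraries that were high for the 7 genes share the leading number of their sample tags. Exposed replicate 3 at PND1 and exposed replicate 3 at PND21 both carry tags that begin with 16, and their values lay on average 0.59 and 0.78 log2 units above their group means. The other leading numbers found at both ages gave -0.15 at PND1 and -0.44 at PND21 (tags beginning with 13, both exposed), and 0.03 and 0.30 (tags beginning with 32, both controls). The labels do not say what these numbers stand for.

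At PND21 several other platelet-list genes averaged higher in exposed females without passing the test. Of the 74 pathway genes tested, 53 averaged higher and 21 lower, against 6785 higher and 7101 lower over all 13886 genes tested. An unadjusted p under 0.05 (limma) was reached by 11 of the 74 and by 9.57% of all genes. The lean was not particular to platelet genes: 6 of 6 B cell and 9 of 10 Kupffer cell markers averaged higher, and 7 of 7 hepatocyte markers lower. The genes named here are among those of lowest p. Flna, encoding filamin A, had 1787 ± 569 normalised counts in exposed females, against 779 ± 39.7 in controls (1.14 ± 0.25, adjusted p = 0.341, limma). Vwf, encoding von Willebrand factor, which endothelium also makes, had 609 ± 220 in exposed females, against 291 ± 59.5 in controls (1.00 ± 0.30, adjusted p = 0.426). Nfe2 had 52.9 ± 29.8 in exposed females, against 18.2 ± 5.03 in controls (1.39 ± 0.48, adjusted p = 0.456).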
